A study of Homo sapiens with 11 samples.

Results

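The high-level bortezomib-resistant sublines CEM/BTZ100 and CEM/BTZ200 were compared with the low-level resistant subline CEM/BTZ7, to ask which genes differ between low and high resistance. The members were chosen by their labels: the 2 samples of CEM/BTZ100 and CEM/BTZ200 were joined and set against the 3 samples of CEM/BTZ7, out of 11 samples in the whole series. All lines derive from CCRF-CEM, an established human T cell acute lymphoblastic leukemia line. Bortezomib (BTZ) is a proteasome inhibitor. CEM/BTZ100 was sampled after 24 h in 100 nM BTZ (1 sample, Cy3), CEM/BTZ200 after 24 h in 200 nM (1 sample, Cy3) and CEM/BTZ7 after 24 h in 7 nM (3 samples, 1 in Cy3 and 2 in Cy5). For context, the drug-free subline CEM/BTZ-200 (1 sample in Cy5, a CEM/BTZ200 culture kept without BTZ), parental CEM/WT after 24 h in 7 nM BTZ, written CEM/WT_BTZ (3 samples), and untreated CEM/WT (2 samples) were measured on the same platform. The BTZ concentration differs between the sublines along with their selection history, so the effect of the drug dose at sampling and that of the selected cells cannot be told apart. The methods of the study place about a week without drug before the 24 h exposure, whereas the labels describe continuous culture in BTZ. Each high-level subline is 1 line measured in 1 sample, and no source says whether the numbered replicates of CEM/BTZ7 were separate cultures, so the spread behind the p-values is that of these samples and could be technical alone.

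The proteasome is the main route by which cells degrade ubiquitinated proteins, and BTZ blocks its chymotrypsin-like site in the beta5 subunit, encoded by PSMB5. T lymphoblasts keep features of developing thymocytes: they express CD3 and its signalling partners, the RAG recombinase that cuts the antigen receptor genes, and, at the cortical stage, CD1 proteins. CD1 proteins resemble class I antigen-presenting molecules but present lipids. CD1A, CD1B and CD1C encode surface molecules of cortical thymocytes and dendritic cells, CD1D presents lipids to natural killer T cells, and CD1E encodes an endosomal helper of lipid loading.

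Arrays of the 5 samples compared had median intensities of 124 in CEM/BTZ100, 67.96 in CEM/BTZ200 and 160 to 188.5 in CEM/BTZ7, and 81.6%, 76.3% and 85.3% to 89.0% of their probes exceeded background, the 95th percentile of the negative controls. That background lay at a log2 of 4.14 in CEM/BTZ200, 3.37 in CEM/BTZ100 and 2.80 to 3.02 in CEM/BTZ7. Levels are given as log2 normalized intensities of a gene's brightest probe, and differences as log2 values, high-level sublines minus CEM/BTZ7, from the limma fit, which adjusts for dye and so can depart from the difference of the printed levels. Of 13 markers of T lymphoblasts, 12 were measured, and each of the 12 exceeded background in all 5 samples. Their summed linear intensity was 108294 in CEM/BTZ100 and 141314 in CEM/BTZ200, against 146734 to 170129 in CEM/BTZ7, with 6 of the 12 lower in both high-level samples than in every CEM/BTZ7 sample, where 14.1% of all genes were, and 0 called. Markers of other cell types also gave signal above background in all 5 samples, 3 of 4 measured for B cells, 4 of 5 for myeloid cells and 4 of 4 for epithelial cells, while MS4A1, CD33 and CDH1 were among those not measured. The summed intensity of the epithelial markers was 3953 in CEM/BTZ100 and 3754 in CEM/BTZ200, against 4503 to 6029.6 in CEM/BTZ7. That of the myeloid markers was 2083 and 386, against 398 to 2531, and that of the B cell markers 5630.5 and 9715, against 5294 to 8822. No marker of these 3 lists was called, and 0 B cell, 1 myeloid and 1 epithelial marker were lower without overlap. The part of these marker shifts in the results below was not tested, and fewer cells of a type and less RNA per cell cannot be told apart in bulk RNA.

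Across 17372 genes, 8 were called (0.0461% of those tested), 1 of them higher (0.00576%) and 7 lower (0.0403%) in the high-level sublines than in CEM/BTZ7. A call needed a Benjamini-Hochberg adjusted p under 0.05 in limma and both high-level samples on the same side of all 3 CEM/BTZ7 samples. The gene called higher was VSTM2B. Those called lower were the chloride channel gene CFTR, the lymphoblast antigen CD10 gene MME, CD1E, the sphingolipid hydroxylase gene FA2H, POGLUT2, POU2AF1 and TTC9. An unadjusted p under 0.05 was reached by 854 genes, and the median difference over all genes was -0.01. With the same-numbered replicates of the other groups as a block, 18 genes were called, 1 higher and 17 lower, 7 of them shared with the 8. The count also depended on single samples: it was 0 without any one CEM/BTZ7 sample, either CEM/WT sample or CEM/WT_BTZ sample 3, and 3 without CEM/WT_BTZ sample 1. It was 1 without CEM/BTZ200 and 106 without CEM/BTZ100, where 1 sample stood for the high-level sublines.

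CFTR, which encodes a chloride channel of epithelia, measured 5.79 in CEM/BTZ100 and 6.36 in CEM/BTZ200, against 9.69, 9.84 and 10.56 in the 3 CEM/BTZ7 samples. The difference was -4.17 (standard error 0.31, adjusted p = 0.0217 from limma). Both high-level samples lay near the parental mean of 5.62 in CEM/WT, while the drug-free CEM/BTZ-200 measured 9.60, near CEM/BTZ7.

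MME encodes the membrane peptidase neprilysin, known to hematologists as CD10, the common acute lymphoblastic leukemia antigen. It measured 2.71 in CEM/BTZ100 and 2.74 in CEM/BTZ200, both below background, against 6.64, 6.46 and 6.64 in CEM/BTZ7. Measured against the background of the dim samples, MME was at least 7.07-fold lower in the high-level sublines (adjusted p = 0.0316 from limma). Of the 7 genes called lower, it was the one whose level in CEM/BTZ-200, 2.78, was nearer to the high-level sublines than to CEM/BTZ7. In the log2 values normalized by the authors, the MME difference was -1.40 and was not called. The 7.07-fold floor therefore holds for the main normalization only.

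FA2H, whose product hydroxylates the fatty acids of sphingolipids, was likewise below background in both high-level samples, at 2.97 in CEM/BTZ100 and 2.79 in CEM/BTZ200. CEM/BTZ7 measured 7.00, 6.84 and 6.57, which made FA2H at least 8.28-fold lower in the high-level sublines (adjusted p = 0.0293 from limma). CEM/BTZ-200 expressed it at 6.48, within 1 log2 unit of every CEM/BTZ7 sample. In the log2 values normalized by the authors, the FA2H difference was -1.33 and was not called. The 8.28-fold floor therefore holds for the main normalization only.

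POGLUT2 encodes a glycosyltransferase of the endoplasmic reticulum that acts on the epidermal growth factor repeats of NOTCH receptors. It measured 5.24 in CEM/BTZ100 and 4.50 in CEM/BTZ200, against 8.62, 8.50 and 8.33 in CEM/BTZ7, a difference of -3.35 (standard error 0.31, adjusted p = 0.0293 from limma). POU2AF1, a transcriptional coactivator best known from B cells, measured 5.01 and 4.45 in the high-level sublines, against 7.20, 7.05 and 7.55 in CEM/BTZ7 (difference -2.68, adjusted p = 0.0316). TTC9, a tetratricopeptide repeat gene, measured 6.23 and 6.19, against 8.43, 8.77 and 8.31 (difference -2.17, adjusted p = 0.0316). All of these were highest in parental CEM/WT among CEM/WT, CEM/BTZ7 and the high-level sublines, with CEM/WT means of 10.32 for POGLUT2, 9.20 for POU2AF1 and 9.44 for TTC9, and none of them overlapped between the high-level samples and CEM/BTZ7.

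VSTM2B, a gene for an immunoglobulin-type membrane protein, was called in the other direction. It measured 6.06 in CEM/BTZ100 and 5.91 in CEM/BTZ200, against 3.05, 2.57 and 3.20 in CEM/BTZ7, where 2 of the 3 samples exceeded background. The difference was 3.03 (standard error 0.32, adjusted p = 0.0316 from limma). CEM/BTZ-200 measured 5.46, near the high-level sublines, and CEM/WT averaged 2.89.

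**Figure D1:**
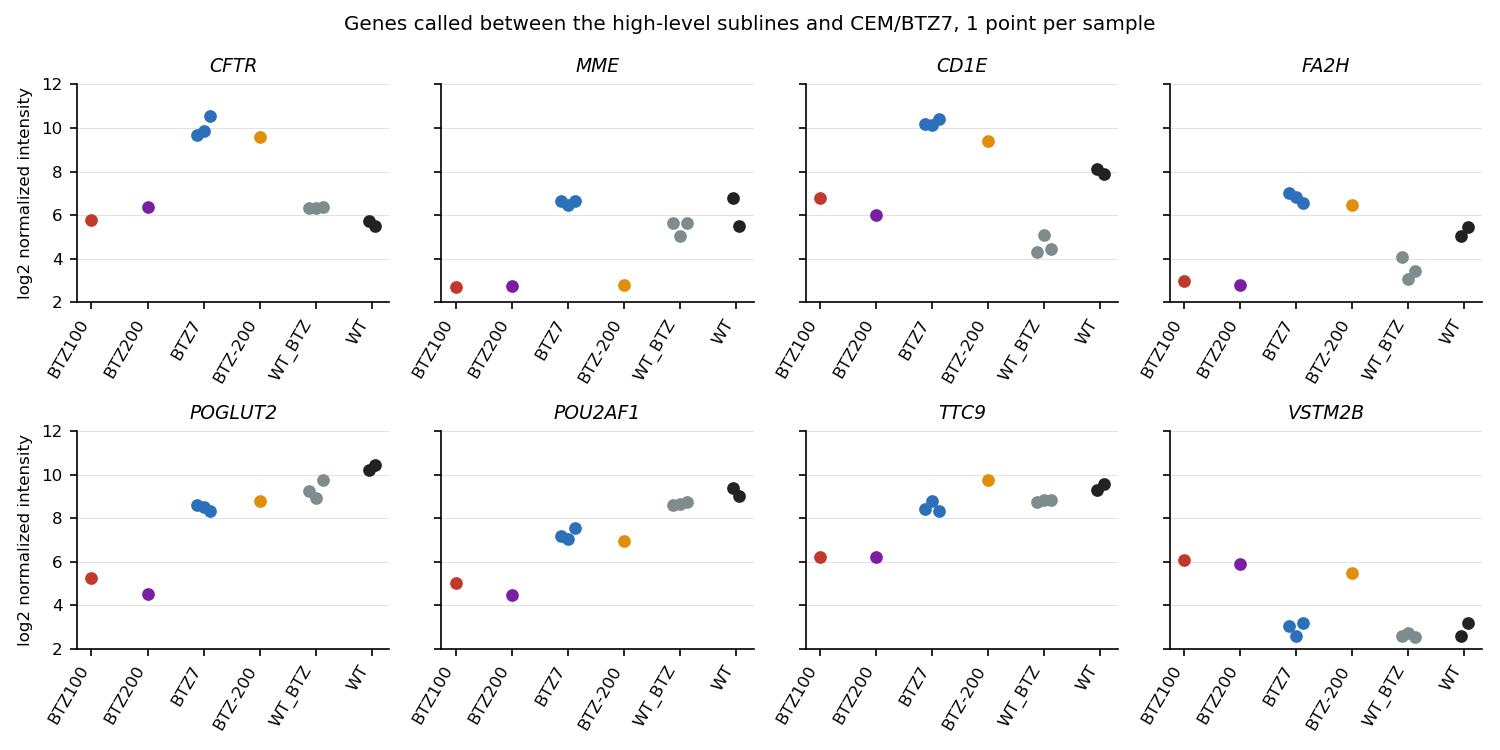
Log2 normalized intensity (y axis) of the 8 genes called between the high-level sublines and CEM/BTZ7, with 1 point per sample and groups along the x axis. CEM/BTZ100 and CEM/BTZ200 lie below all 3 CEM/BTZ7 samples in 7 panels and above them for VSTM2B, and the drug-free CEM/BTZ-200 lies nearer to CEM/BTZ7 than to them in all panels but those of MME and VSTM2B.

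CEM/BTZ7 was labelled in both dyes and the high-level samples in Cy3 alone. Which CEM/BTZ7 sample was the one in Cy3 is uncertain, since the numbers of the deposited intensities and log2 values do not match. Within Cy3 as numbered with the intensities, against 1 CEM/BTZ7 sample, the 8 differences were close to those above (CFTR -4.49, MME -3.91, CD1E -4.05, FA2H -3.69, POGLUT2 -3.46, POU2AF1 -2.82, TTC9 -2.10 and VSTM2B 2.79), but with fewer samples 0 genes passed the test, and the adjusted p of the 8 ranged between 0.0758 and 0.256. With the dyes assigned by the match to the log2 values, 11 genes were called, 3 higher and 8 lower, of which 7 were shared with the 8. POU2AF1 was then not called (adjusted p = 0.053 from limma), while the genes MIAT (0.0312) and SERPINA7 (0.0371) passed the threshold.

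Beyond the genes called, 89 genes were more than 2-fold higher (0.512%) and 312 more than 2-fold lower (1.8%) in both high-level samples than the CEM/BTZ7 mean, and outside the range of the CEM/BTZ7 samples. This count carries no test and its rule was added after the data were seen. Of the 312 lower genes, 133 were below background in both high-level samples. In CEM/BTZ-200, a sample that the comparison did not use, 32 of the 89 higher genes and 129 of the 312 lower genes lay nearer to the high-level sublines, and 57 and 183 nearer to CEM/BTZ7. These genes were picked for lying far from CEM/BTZ7 in the high-level samples, and CEM/BTZ-200 was labelled in Cy5, unlike those samples, so no return toward CEM/BTZ7 can be read from these counts.

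**Figure D2:**
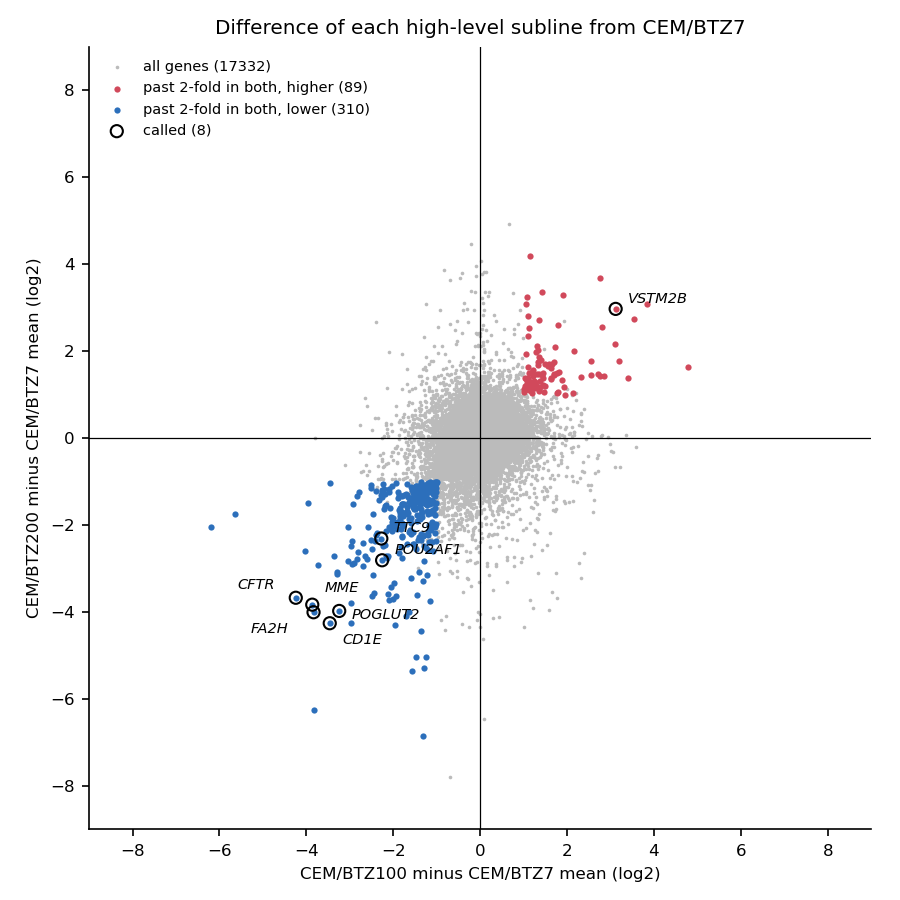
Difference of CEM/BTZ100 (x axis) and of CEM/BTZ200 (y axis) from the CEM/BTZ7 mean, both in log2, for 17332 genes (XIST and Y-linked genes were not drawn, which leaves 310 of the 312 lower genes). The genes past 2-fold in both sublines are coloured and the 8 called genes are circled, and the cloud spreads along each axis as well as along the diagonal.

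By the smallest p among genes whose groups did not overlap, 14 further genes with higher levels were next in order, none of them called. MIAT, a long noncoding RNA, measured 12.27 in CEM/BTZ100 and 11.53 in CEM/BTZ200, against 8.10, 8.16 and 9.06 in CEM/BTZ7 (difference 3.29, adjusted p = 0.0501 from limma). SERPINA7, the gene for thyroxine-binding globulin, measured 6.20 and 5.40, against 2.53, 2.91 and 2.56, where 1 of the 3 CEM/BTZ7 samples exceeded background (difference 3.07, adjusted p = 0.0501). HTR1A, a serotonin receptor gene, measured 5.50 and 6.42, against 2.85, 2.91 and 2.47, where 1 of the 3 CEM/BTZ7 samples exceeded background (difference 3.55, adjusted p = 0.0609). Parental CEM/WT averaged 5.98 for SERPINA7, between the 2 high-level samples, but 4.99 for MIAT and 3.29 for HTR1A. The others were DYNC1I1, PIK3IP1, CCDC80, IL12A, GJA3, MCTP1, LONRF2, MCF2, HEY1, NPL and SRCIN1, with adjusted p between 0.142 and 0.294. Among the others, CEM/WT averaged 6.44 for PIK3IP1, 7.46 for GJA3, 7.55 for NPL, 6.46 for MCTP1 and 4.63 for SRCIN1, above the CEM/BTZ7 mean. It lay below that mean for DYNC1I1 (5.89), CCDC80 (2.54), LONRF2 (3.74) and MCF2 (2.64). For IL12A (3.17) and HEY1 (2.76) CEM/WT was near background. PIK3IP1, a negative regulator of PI3-kinase, measured 6.65 and 6.85 in the high-level sublines, against 4.85, 5.24 and 5.36. A second, dimmer PIK3IP1 probe went the other way without overlap, at 5.05 and 4.76, against 5.39, 6.20 and 5.36, so the direction of this gene depends on the probe. A second, dimmer CCDC80 probe was also lower on average, with overlap, at 3.83 and 2.55, against 5.07, 3.62 and 4.18. The other SRCIN1 probes were lower on average too (-0.49 and -0.11 from the levels alone). IL12A was below background in CEM/BTZ200 and in all 3 CEM/BTZ7 samples. HEY1, a NOTCH target gene, measured 3.94 and 4.66, against 2.34, 2.93 and 2.58, near background throughout. MALAT1, another abundant nuclear noncoding RNA, named here after its values were seen, measured 16.01 and 15.75, against 14.997, 12.48 and 12.11. Its CEM/BTZ7 samples spread over more than 2 log2 units, and its adjusted p was 0.738.

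The 8 genes next in order with lower levels were TDRD9, CTTNBP2, SERHL2, TTC7B, TMEM204, TP53I3, TNFSF10 and PLAC1, with adjusted p between 0.0501 and 0.0609. TNFSF10 encodes the death ligand TRAIL. It measured 5.54 in CEM/BTZ100 and 5.29 in CEM/BTZ200, against 7.45, 7.57 and 7.10 in CEM/BTZ7 (difference -1.76, adjusted p = 0.0609 from limma). TP53I3, a p53 target gene, measured 6.93 and 6.25, against 8.42, 8.89 and 8.95, with a CEM/WT mean of 5.88 and a CEM/BTZ-200 level of 9.94. TDRD9, a putative RNA helicase gene of the germline piRNA pathway, measured 7.32 and 6.49, against 10.49, 10.51 and 9.88. Genes named after their values were seen showed the same separation: ACKR3, an atypical chemokine receptor, measured 6.15 and 5.04, against 8.64, 8.73 and 8.43 (adjusted p = 0.0743). EPAS1, the hypoxia-inducible factor HIF-2alpha, measured 6.06 and 4.41, against 8.13, 8.45 and 7.86 (adjusted p = 0.173). CD52, the lymphocyte antigen targeted by alemtuzumab, measured 8.85 and 8.10, against 10.18, 10.50 and 10.92 (adjusted p = 0.167).

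The CD1 genes were the group that differed most between high-level sublines and CEM/BTZ7 among the 43 gene lists described. All 5 were lower in both high-level samples than in every CEM/BTZ7 sample, where 14.1% of all genes were lower without overlap, and all 5 passed 2-fold in both sublines. Their median difference was -2.14, against -0.01 over all genes, and lay between -2.34 and -1.86 under the alternatives run. Only CD1E was called. The CD1 list holds genes that the study had named from these samples, so its direction is not independent evidence. CD1E measured 6.79 in CEM/BTZ100 and 5.99 in CEM/BTZ200, against 10.19, 10.12 and 10.43 in CEM/BTZ7 (difference -4.02, standard error 0.35, adjusted p = 0.0293 from limma). A second CD1E probe gave 6.35 and 5.97, against 9.80, 9.40 and 10.13.

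CD1A measured 9.31 in CEM/BTZ100 and 9.92 in CEM/BTZ200, against 11.30, 11.29 and 11.83 in CEM/BTZ7 (difference -2.28, adjusted p = 0.11). CD1B measured 7.05 and 7.13, against 8.64, 8.90 and 8.97 (difference -1.75, adjusted p = 0.07). CD1C measured 8.66 and 8.68, against 10.49, 10.84 and 10.74 (difference -2.14, adjusted p = 0.14). The groups did not overlap for any of these. CD1D measured 8.74 and 8.77, against 9.93, 10.12 and 10.08 (difference -1.54, adjusted p = 0.28). Set against parental CEM/WT, CEM/BTZ7 was higher for all 5, by 2.39 for CD1A, 2.02 for CD1B, 0.74 for CD1C, 2.63 for CD1D and 2.25 for CD1E. The high-level sublines lay within 1 log2 unit of CEM/WT for CD1A (0.53 above) and CD1B (0.27 above), 1.34 above it for CD1D, and below it for CD1C (-1.27) and CD1E (-1.61). CEM/BTZ-200 lay between the high-level sublines and the CEM/BTZ7 mean for all 5, for CD1C at 10.61, inside the range of CEM/BTZ7.

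Because the 5 genes form 1 cluster on chromosome 1 and were lower together, the promoters of the 3 members that held a searched motif are shown as 300 bases across the start of each gene (RefSeq, GRCh38.p14, + strand), with motif matches in capitals. The windows are chr1:158248086-158248385 for CD1A, chr1:158289673-158289972 for CD1C and chr1:158353644-158353943 for CD1E.
CD1A: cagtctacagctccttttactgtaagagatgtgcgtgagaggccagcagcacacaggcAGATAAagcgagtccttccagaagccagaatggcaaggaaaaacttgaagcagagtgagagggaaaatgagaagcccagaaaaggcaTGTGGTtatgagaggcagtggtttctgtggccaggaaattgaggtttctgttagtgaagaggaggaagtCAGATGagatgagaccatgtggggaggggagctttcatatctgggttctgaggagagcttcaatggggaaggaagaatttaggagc
CD1C: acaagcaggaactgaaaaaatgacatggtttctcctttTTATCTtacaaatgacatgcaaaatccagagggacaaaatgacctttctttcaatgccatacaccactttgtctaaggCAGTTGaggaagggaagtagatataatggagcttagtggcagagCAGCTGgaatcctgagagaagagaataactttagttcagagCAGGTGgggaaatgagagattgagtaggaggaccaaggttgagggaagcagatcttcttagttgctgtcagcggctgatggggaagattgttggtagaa
CD1E: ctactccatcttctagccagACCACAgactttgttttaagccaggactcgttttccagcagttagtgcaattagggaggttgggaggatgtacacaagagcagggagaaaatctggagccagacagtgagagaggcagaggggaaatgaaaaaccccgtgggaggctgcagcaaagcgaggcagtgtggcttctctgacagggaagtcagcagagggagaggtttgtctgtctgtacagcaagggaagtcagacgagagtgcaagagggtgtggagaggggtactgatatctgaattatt
Motifs of 3 families of transcription factors that act in thymocytes were searched on both strands. The E-box of basic helix-loop-helix factors was written CAGNTG. For GATA factors the letters searched were AGATAA. For RUNX factors the letters searched were TGTGGT. CD1A held 1 E-box, 1 GATA and 1 RUNX match, CD1C held 3 E-box and 1 GATA match, and CD1E held 1 RUNX match, written as ACCACA on the opposite strand. The CD1D window held none of the 3, and 4 of the 5 CD1 genes, all but CD1B, were matched to the RefSeq promoter table. Over 27305 promoters of the same length, 49.9% held an E-box match, 10.5% a GATA match and 13.1% a RUNX match. A match is a description of letters and shows no binding.

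Of 14 measured genes of V(D)J recombination and the pre-T cell receptor, 5 were lower and 2 higher without overlap (14.1% and 9.65% of all genes) and 0 were called. The median difference was -0.47, between -0.74 and -0.13 under the alternatives run, and the medians from the levels alone were -0.04 in CEM/BTZ100 and -0.60 in CEM/BTZ200. DNTT, which encodes the terminal transferase that adds bases at V(D)J joints, measured 5.53 in CEM/BTZ100 and 4.75 in CEM/BTZ200, against 7.43, 7.27 and 7.47 in CEM/BTZ7 (difference -2.75, adjusted p = 0.12 from limma). RAG1, a recombinase subunit gene, measured 12.97 and 13.21, against 13.92, 13.61 and 14.65. CD8A, a T cell coreceptor gene, measured 7.66 and 8.59, against 9.99, 9.84 and 9.27. The values of all 3 genes were apart between the groups, and RAG2 and PTCRA, the pre-T cell receptor alpha gene, were the other 2 lower members.

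**Figure D3:**
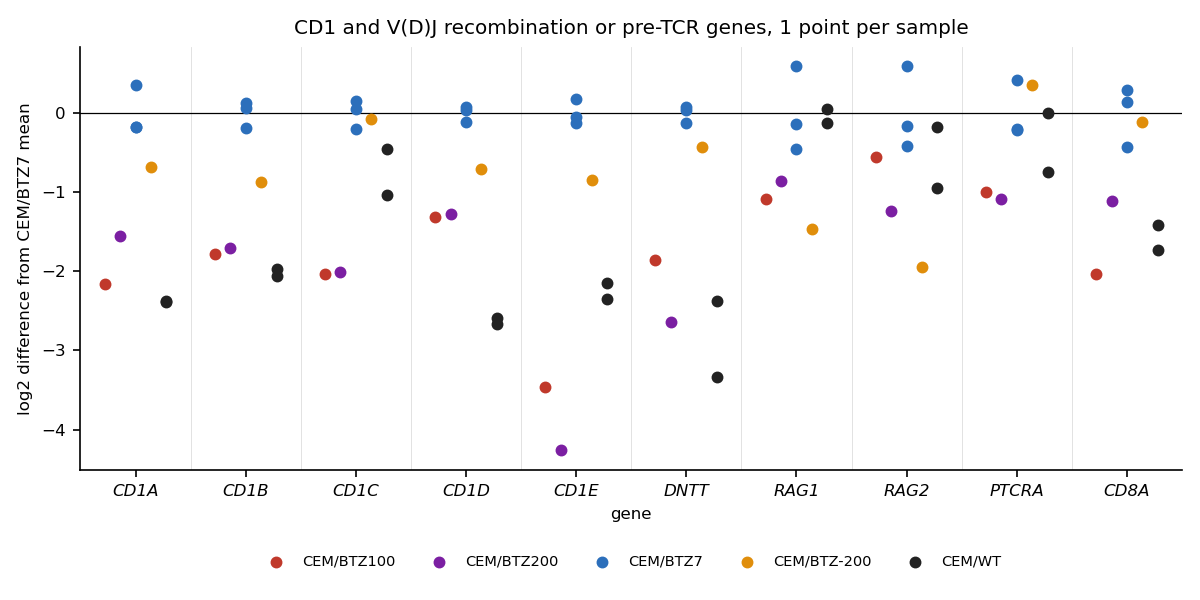
Log2 difference of each sample from the CEM/BTZ7 mean (y axis) for the 5 CD1 genes and 5 genes of V(D)J recombination or the pre-T cell receptor (x axis), with 1 point per sample. The 5 V(D)J or pre-T cell receptor genes drawn are those lower without overlap among 14 measured. The 2 members higher without overlap and the CEM/WT_BTZ samples were not drawn. CEM/BTZ100 and CEM/BTZ200 lie below the 3 CEM/BTZ7 samples for all 10 genes, and CEM/WT also lies below them for CD1A, CD1B, CD1C, CD1D, CD1E, DNTT and CD8A.

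Of 33 measured genes of the T cell surface and receptor signalling, 11 were lower and 1 higher without overlap (14.1% and 9.65% of all genes). The median difference was -0.22, turning to 0.02 with samples scaled to their 75th percentile, and 0 were called. CD28, the costimulatory receptor gene, was below background in both high-level samples (2.62 in CEM/BTZ100, 2.38 in CEM/BTZ200), against 5.25, 4.94 and 4.38 in CEM/BTZ7, at least 2.15-fold lower (adjusted p = 0.0695 from limma). IL7R, the interleukin 7 receptor gene, was the member higher without overlap, at 10.68 and 10.83, against 8.60, 9.75 and 9.72 (adjusted p = 0.89). CD3D and LCK, components of T cell receptor signalling, differed by under 1 log2 unit (-0.36 and -0.39). Among 34 T lineage and NOTCH regulators, 6 were lower and 2 higher without overlap (14.1% and 9.65% of all genes). HES1, a NOTCH target gene, measured 12.01 and 12.89, against 13.74, 13.61 and 13.35 (difference -1.06, adjusted p = 0.67), and NOTCH1 itself 9.96 and 9.87, against 10.9997, 10.48 and 10.76 (difference -1.01, adjusted p = 0.91).

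Among 30 interferon-stimulated genes, 8 were lower and 2 higher without overlap (14.1% and 9.65% of all genes), with a median difference of -0.19 and 0 called. MX1, an antiviral GTPase gene, measured 9.51 in CEM/BTZ100 and 8.99 in CEM/BTZ200, against 11.11, 11.51 and 10.80 in CEM/BTZ7 (difference -1.91, adjusted p = 0.27 from limma). OAS3, a sensor of double-stranded RNA, measured 5.46 and 6.96, against 8.40, 8.45 and 8.03 (difference -2.08, adjusted p = 0.33). The order of these 2 sublines differed between the genes. IFI44, in contrast, was higher in both, at 12.29 and 12.22, against 11.09, 11.08 and 11.54 (difference 0.69, adjusted p = 0.88). CASP1, the inflammatory caspase gene, was below background in both high-level samples, against 4.97, 6.15 and 5.21 in CEM/BTZ7, at least 3.22-fold lower (adjusted p = 0.114).

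PSMB5, the gene of the subunit that BTZ binds, measured 16.05 in CEM/BTZ100 and 15.97 in CEM/BTZ200, against 15.42, 15.43 and 15.81 in CEM/BTZ7, a difference of 0.33 (standard error 0.22) that limma did not call (adjusted p = 1.0). The groups did not overlap, and the difference lay between 0.20 and 0.87 under the alternatives run, highest with samples scaled to their 75th percentile, and was not called under any of them (adjusted p between 0.492 and 1.0). CEM/WT averaged 14.14. Of the 14 constitutive 20S core genes, 5 were higher (PSMA7, PSMB1, PSMB4, PSMB5 and PSMB7) and 1, PSMA6, lower without overlap, where 9.65% and 14.1% of all genes were. Of 19 measured genes of the 19S regulatory particle, which recognises and unfolds ubiquitinated substrates, 8 were higher and 1, PSMD2, lower without overlap, next to the same shares of all genes. The medians were 0.21 for both lists, and 0.79 and 0.63 with samples scaled to their 75th percentile, where these bright genes shifted upward. The immunoproteasome and PA28 genes had a median of -0.30 (0.00 with that scaling), with PSMB9 at 12.83 and 13.44, against 13.77, 13.70 and 13.74, and 0 of 5 called.

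MARCKS, which encodes an actin-binding protein kinase C substrate at the plasma membrane, measured 13.35 in CEM/BTZ100 and 13.17 in CEM/BTZ200, against 12.98, 12.73 and 12.36 in CEM/BTZ7. The groups did not overlap, but the fitted difference of 0.91 (standard error 0.41), or 0.58 from the levels alone, was not called (adjusted p = 1.0 from limma), next to a CEM/WT mean of 5.0. Within the protein kinase C family, PRKCE measured 7.20 and 7.73, against 9.99, 10.06 and 9.31 (difference -2.22, adjusted p = 0.11). PRKCA measured 7.99 and 7.15, against 5.64, 6.62 and 6.45 (difference 1.49, adjusted p = 0.72). Among 42 actin regulators, 6 were higher and 8 lower without overlap (9.65% and 14.1% of all genes), and AIF1L, an actin-bundling protein gene, was lowest in CEM/BTZ200 (9.82 in CEM/BTZ100 and 7.47 in CEM/BTZ200, against 11.80, 11.91 and 11.61). Among 18 aldehyde dehydrogenases, 5 were lower and 3 higher without overlap (14.1% and 9.65% of all genes). ALDH1A2, a retinoic acid synthesis gene, measured 8.86 and 9.57, against 11.68, 11.26 and 11.02 (difference -2.17, adjusted p = 0.19).

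Stress genes showed no shared direction between 100 or 200 nM and 7 nM BTZ, and none of them was called. DDIT3, the gene for the apoptotic transcription factor CHOP, measured 8.17 in CEM/BTZ100 and 8.25 in CEM/BTZ200, against 7.45, 7.98 and 7.80 in CEM/BTZ7 (difference 0.67, adjusted p = 1.0 from limma). In CEM/WT_BTZ it averaged 11.75. HSPA1A, an inducible HSP70 gene, measured 13.08 and 14.01, against 13.06, 12.57 and 13.66, with groups that overlapped, and averaged 16.66 in CEM/WT_BTZ. CLU, the gene for the secreted chaperone clusterin, measured 6.27 and 6.66, against 6.84, 7.75 and 8.95 (difference -1.76, adjusted p = 0.724). XBP1, a transcription factor of the unfolded protein response, measured 14.001 and 12.94, against 14.37, 14.20 and 14.59 (difference -1.08, adjusted p = 0.738). JUN measured 8.01 in CEM/BTZ100 and 10.84 in CEM/BTZ200, on either side of the 8.94, 10.07 and 9.22 in CEM/BTZ7, and CXCL8, which encodes interleukin 8, was below background in both. Of the resistance factors named in the study's introduction, HSPB1, HSPA5, ABCB1, CDKN1A, AKT1, MTOR, CIP2A, PMAIP1 and MCL1 had fitted differences between -0.39 and 0.44, and between -0.32 and 0.60 from the levels alone. For AKT1 the sign turned with the dye term (-0.35 fitted, 0.13 from the levels), and none of these genes was called.

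Of 35 autophagy and cargo receptor genes, 10 were higher and 2 lower without overlap (9.65% and 14.1% of all genes), with a median of 0.07 and 0 called. WIPI1, which binds the forming autophagosome membrane, measured 7.98 in CEM/BTZ100 and 8.02 in CEM/BTZ200, against 6.32, 6.16 and 7.21 in CEM/BTZ7 (difference 1.31, adjusted p = 0.59 from limma). GABARAPL1, an ATG8 family gene, measured 12.42 and 12.91, against 11.55, 11.23 and 11.60 (difference 1.12, adjusted p = 0.38). ULK1, the kinase gene that starts autophagy, measured 13.78 and 13.85, against 13.11, 13.34 and 13.27 (difference 0.41). Among 24 measured genes of ubiquitin, VCP and deubiquitinases, 6 were higher and 1 lower without overlap (9.65% and 14.1% of all genes). Among 33 replication and nucleotide supply genes, 11 were lower and 1 higher without overlap (14.1% and 9.65% of all genes). Their median of -0.08 turned to 0.17 with samples scaled to their 75th percentile and to 0.02 in the values normalized by the authors. TK1, thymidine kinase, measured 15.27 in both high-level sublines, against 16.16, 16.38 and 16.28 (difference -0.89, adjusted p = 0.44). Of 12 measured drug efflux transporters, 4 were higher and 1 lower without overlap (9.65% and 14.1% of all genes), and 0 were called.

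**Figure D4:**
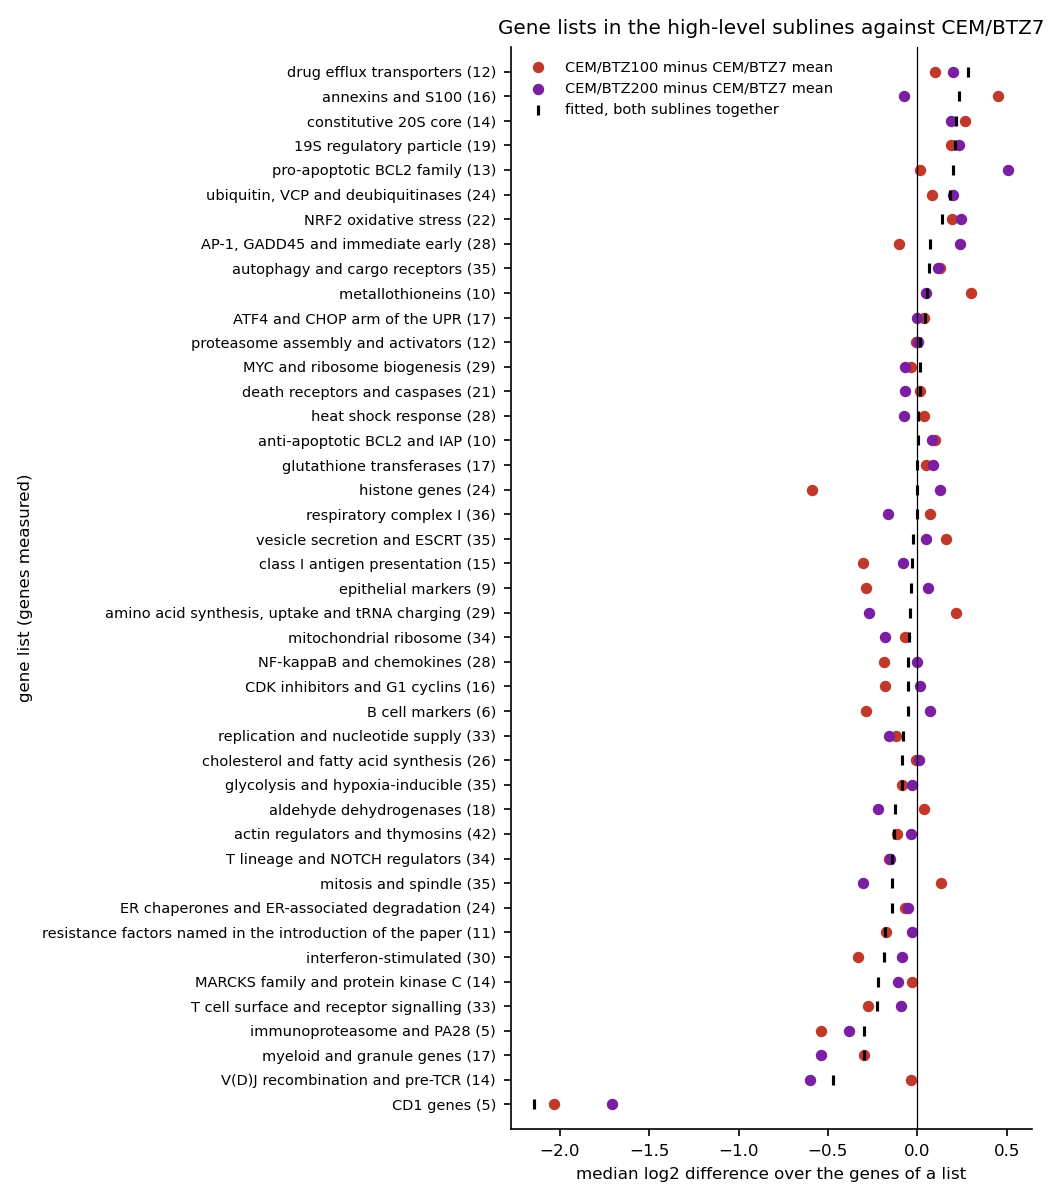
Median log2 difference over the measured genes of each of the 43 gene lists (y axis, number of genes in brackets) for CEM/BTZ100 and CEM/BTZ200 against the CEM/BTZ7 mean, with the fitted value for both sublines together as a vertical tick. The CD1 genes stand at -2.03 in CEM/BTZ100 and -1.71 in CEM/BTZ200, while every other list has a fitted median between -0.47 and 0.28.

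By correlation, the high-level sublines differed from each other about as much as from CEM/BTZ7. Across genes, which are not independent, the correlation of log2 levels was 0.979 between CEM/BTZ200 and CEM/BTZ100. It was 0.980 to 0.983 between CEM/BTZ100 and the CEM/BTZ7 samples, and 0.975 to 0.981 between CEM/BTZ200 and those samples. Among the CEM/BTZ7 samples themselves it was 0.981 to 0.986, so the correlations hardly rank these differences. Taken by itself, CEM/BTZ100 had 616 genes more than 2-fold higher and 867 lower than the CEM/BTZ7 mean, and CEM/BTZ200 had 571 and 1022. Of these, 93 were shared as higher and 366 as lower, and 98 were past 2-fold in opposite directions. Set directly against CEM/BTZ100, a single sample and not a mean of 3, CEM/BTZ200 had 1061 genes more than 2-fold higher and 1178 lower. In limma, with the spread borrowed from the other groups, CEM/BTZ100 had 0 genes called higher (0%) and 1 lower (0.00576%) than CEM/BTZ7, with 1260 genes at an unadjusted p under 0.05. CEM/BTZ200 had 38 higher (0.219%) and 68 lower (0.391%), with 1183 genes at that unadjusted level, and between 12 (without CEM/BTZ7 sample 3) and 70 (without CEM/WT_BTZ sample 3) called in all when 1 replicate was left out. The comparisons share the CEM/BTZ7 samples. The 1 gene called in CEM/BTZ100 was DNAJC15, a mitochondrial co-chaperone gene, at 5.44 in CEM/BTZ100, against 11.49, 11.93 and 11.50 in CEM/BTZ7 (adjusted p = 0.0199 from limma), and that call was lost in 7 of the 8 fits with 1 replicate left out.

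Between CEM/BTZ200 and CEM/BTZ100, with 1 sample each, 62 genes were called (0.357%), 34 higher (0.196%) and 28 lower (0.161%) in CEM/BTZ200. Of the 34 higher genes, 23 were below background in CEM/BTZ100, and of the 28 lower genes, 15 were below background in CEM/BTZ200, the dimmest of the 5 arrays. HTATIP2, a short-chain dehydrogenase family gene, measured 4.21 in CEM/BTZ200 and 11.33 in CEM/BTZ100 (difference -7.12, standard error 0.30, adjusted p = 0.00293 from limma), with 11.92 to 12.18 in CEM/BTZ7. HACD4, a gene of very long chain fatty acid elongation, measured 2.34 in CEM/BTZ200, below background, and 8.90 in CEM/BTZ100, at least 27.1-fold lower in CEM/BTZ200 (adjusted p = 0.00463). GRB10, an adapter of insulin receptor signalling, measured 6.09 in CEM/BTZ200 and 10.78 in CEM/BTZ100 (difference -4.69, adjusted p = 0.0214). MAL, a membrane raft protein of T cells, measured 7.51 in CEM/BTZ200 and 11.93 in CEM/BTZ100 (difference -4.42, adjusted p = 0.0284). For these 4 genes CEM/BTZ100 was within 1 log2 unit of the CEM/BTZ7 mean and CEM/BTZ200 stood apart. Under the alternatives run, the log2 difference between the sublines was as small as -2.83 for HACD4, and -2.13 for TCEAL5, given next. TCEAL5 and TCEAL9, related genes of the transcription elongation factor A-like family on the X chromosome, measured 2.45 and 5.97 in CEM/BTZ200, against 8.0 and 10.52 in CEM/BTZ100 (TCEAL5 below background in CEM/BTZ200 and at least 14.5-fold lower there, adjusted p = 0.0266, and TCEAL9 with an adjusted p of 0.0201).

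Of the 8 genes named as higher in CEM/BTZ200, 6 were below background in CEM/BTZ100. ANO1, a calcium-activated chloride channel gene, measured 7.48 in CEM/BTZ200 and 3.22 in CEM/BTZ100, below background, at least 17.3-fold higher in CEM/BTZ200 (adjusted p = 0.00902 from limma). FST, which encodes the activin antagonist follistatin, measured 6.52 in CEM/BTZ200 and 2.47 in CEM/BTZ100, at least 8.89-fold higher (adjusted p = 0.00902). TMEM255A was at least 13.1-fold higher in CEM/BTZ200, the bradykinin receptor gene BDKRB2 at least 11.4-fold, the kinesin gene KIF13A at least 9.27-fold and SPAG1, a dynein arm assembly gene, at least 8.87-fold. All of these were also present in the drug-free CEM/BTZ-200, at 7.88 for ANO1, 6.72 for FST, 7.11 for TMEM255A, 7.14 for BDKRB2, 7.02 for KIF13A and 7.23 for SPAG1. The floors above hold for the main normalization only. Under the alternatives run, the log2 differences were as small as 1.87 for ANO1, 1.71 for FST and 1.67 for TMEM255A. They were as small as 1.88 for BDKRB2, 1.32 for KIF13A and 1.59 for SPAG1. Over all 34 genes called higher, CEM/BTZ-200 was nearer to CEM/BTZ200 than to CEM/BTZ100 in 31. Of the 28 called lower, it was nearer to CEM/BTZ200 in 11 and nearer to CEM/BTZ100 in 17, with HTATIP2 at 10.82, HACD4 at 7.84, GRB10 at 11.71 and MAL at 11.79. These genes were picked by the difference between the sublines, and whether the shares of 31 in 34 and 11 in 28 differ was not tested. The CEM/BTZ-200 array was also dim, with a median intensity of 67.3 and a log2 background of 4.47. CEM/BTZ200 had 67.96 and 4.14. Whether this shared dimness bears on the likeness of these samples was not tested. The number called between the sublines was 13 (3 higher, 10 lower) with samples scaled to their 75th percentile, 23 without CEM/WT_BTZ sample 2, 16 and 12 without CEM/BTZ7 samples 3 and 1, and 2 without CEM/BTZ7 sample 2, CEM/WT_BTZ sample 1 or either CEM/WT sample.

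**Figure D5:**
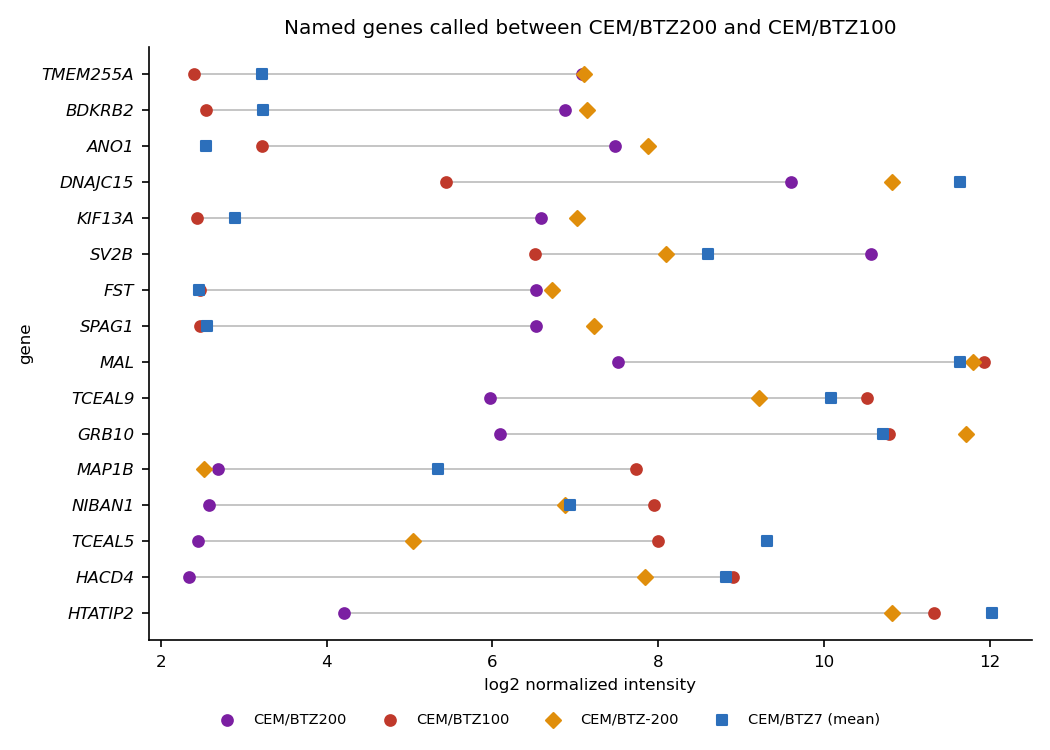
Log2 normalized intensity (x axis) of the 16 named genes called between CEM/BTZ200 and CEM/BTZ100 (y axis), with 1 point per sample and a square for the mean of 3 CEM/BTZ7 samples. CEM/BTZ-200 lies nearer to CEM/BTZ200 for TMEM255A, BDKRB2, ANO1, DNAJC15, KIF13A, FST, SPAG1, MAP1B and TCEAL5, and nearer to CEM/BTZ100 for SV2B, MAL, TCEAL9, GRB10, NIBAN1, HACD4 and HTATIP2.

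By chromosome, the median difference between the high-level sublines and CEM/BTZ7 lay between -0.12 on chromosome 3 and 0.03 on chromosome 1. Chromosome 14, which holds PSMB5 and other proteasome genes, had a median of 0.38 in CEM/BTZ7 minus CEM/WT and of -0.04 in the high-level sublines minus CEM/BTZ7. The sublines differed from each other most on chromosome 16, where the median of CEM/BTZ200 minus CEM/BTZ100 over 762 genes was 0.30, followed by 0.19 over 425 genes on chromosome 22, against 0.03 over all genes. In CEM/BTZ-200 minus CEM/BTZ7, the median reached 0.32 on chromosome 19, 0.26 on chromosome 22 and 0.23 on chromosome 16. It fell to -0.26 on chromosomes 14 and 18. CEM/BTZ200 and CEM/BTZ-200 were the dimmest arrays of the series, and the source of these shifts was not tested. These medians are descriptions over neighbouring genes and carry no test.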

How the data were processed

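RNA of 11 samples was hybridised to Agilent whole human genome arrays. The deposited intensities cover 45015 spots per sample and come from scans that the authors quantified with Agilent Feature Extraction, with no normalization between arrays. The background step behind them is not given in the sources used. The authors also deposited log2 values, made with limma by background correction, loess and quantile normalization, which served as an alternative. For CEM/BTZ7, intensity columns 1, 2 and 3 best matched columns 2, 3 and 1 of the log2 values (Spearman 0.993, 0.995 and 0.992, against 0.969, 0.975 and 0.976 for the same number), so the dye of these columns is uncertain.

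Intensities were quantile-normalized and put on the log2 scale, and 37422 of 41000 probes above the 95th percentile of 153 negative controls in at least 2 samples were kept. The brightest probe on average stood for each of 17372 genes, after probes without a symbol (11672) or with more than 1 (84) had been dropped. The fit of groups and dye used limma 3.58.1 and R 4.3.3 (5 residual and 2.78 prior degrees of freedom), CEM/BTZ100 and CEM/BTZ200 as 1 group and, for single sublines, as groups of their own. Tests are 2-sided. A fold given as "at least" is computed against the 95th percentile of the negative controls in the dim samples. It is a floor within the main normalization only, and the alternatives gave smaller differences for several of these genes. The scripts were tested on simulated data.

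The members and the 43 lists were chosen with earlier results of these data known. Named were the 15 genes called with the largest rise and the 15 with the largest fall, filled by the smallest p, called list members, resistance factors and a few fixed genes, and 8 genes in each direction between CEM/BTZ200 and CEM/BTZ100. Lists were described by counts and medians alone.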

Additional observations from a re-analysis of the deposited data

Results flagged for a closer look

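Of the named genes called between CEM/BTZ200 and CEM/BTZ100, 3 lay more than 2-fold from the CEM/BTZ7 mean on opposite sides in the sublines and were singled out for that, the difference between the sublines being the tested value. MAP1B, which encodes a microtubule-associated protein, measured 2.69 in CEM/BTZ200, below background, and 7.73 in CEM/BTZ100, against 4.63, 5.59 and 5.79 in CEM/BTZ7 (CEM/BTZ200 minus CEM/BTZ100 -5.04, at least 12.1-fold lower, adjusted p = 0.0479 from limma). NIBAN1, a stress-responsive gene, measured 2.58 in CEM/BTZ200, below background, and 7.95 in CEM/BTZ100, against 6.71, 7.39 and 6.70 (difference -5.38, at least 14.1-fold lower, adjusted p = 0.0183). SV2B, a synaptic vesicle gene, measured 10.57 in CEM/BTZ200 and 6.51 in CEM/BTZ100, against 8.63, 8.61 and 8.57 (difference 4.06, adjusted p = 0.0183). Under the alternatives run, the difference between the sublines was as small as -2.01 for MAP1B, -1.92 for NIBAN1 and 3.46 for SV2B. Of 12 alternatives, the call was lost in 11 for MAP1B, in 6 for NIBAN1 and in 5 for SV2B. A second, dimmer NIBAN1 probe measured 2.99 in CEM/BTZ200, below background, and 4.77 in CEM/BTZ100, against 3.44, 3.07 and 4.16 in CEM/BTZ7. For NIBAN1, the 2-fold distance on both sides therefore rests on the brighter probe. In the drug-free CEM/BTZ-200, MAP1B stood at 2.52, NIBAN1 at 6.87 and SV2B at 8.09. Each subline had 1 sample, so these differences have no replicate check within a subline.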

How the results depend on the processing

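The count of 8 genes called between the high-level sublines and CEM/BTZ7 became 52 (7 higher, 45 lower) with no dye term, 50 with the sublines as separate groups, 21 in the log2 values normalized by the authors, 18 with the replicate block, 16 for probes above background in all 5 samples, 2 in the 5 samples without a dye term, and 0 in the 5 samples with dye or within Cy3, fits with fewer samples. It was 10 (0 higher, 10 lower) with samples scaled to their 75th percentile, and 0 to 6 with 1 replicate of CEM/BTZ7, CEM/WT_BTZ or CEM/WT left out. CEM/BTZ100 over CEM/BTZ7 had 1 gene called, 58 with no dye term, 16 in the authors' log2 values, 11 with no filter on dim probes, and 0 to 1 with 1 replicate left out. CEM/BTZ200 over CEM/BTZ7 had 106, 177 with no dye term, 46 in the authors' log2 values, 83 (13 higher, 70 lower) with the 75th percentile, and 12 to 70 with 1 replicate left out. CEM/BTZ200 over CEM/BTZ100 had 62, 13 (3 higher, 10 lower) with the 75th percentile, 20 (8 higher, 12 lower) in the authors' log2 values, and 2 to 46 with 1 replicate left out. Where no reason is given, the cause was not tested.

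No alternative turned the direction of a called gene among those named. In the authors' log2 values, FA2H (-1.33), MME (-1.40), POU2AF1 (-0.96) and VSTM2B (1.07) lost their call. No paired analysis was possible because CEM/BTZ100 and CEM/BTZ200 carry no replicate number. The block (consensus correlation 0.69) used the numbers of the other groups, whose same-numbered samples deviated together (correlations of 0.295 to 0.534). With 1 sample per subline and a dim CEM/BTZ200 array, low genes were limited by background.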
